A study of Mus musculus with 2 samples.

Results

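The miR-130 and miR-301 family was examined in ureteric bud cells of the mouse embryo through the array probes named mmu-miR-130a, mmu-miR-130b, mmu-miR-301a and mmu-miR-301b. They were chosen by exact name, with asterisk names left out, and all 4 were present among the 1040 miRNA probes. The ureteric bud is the epithelial tube that branches within the embryonic kidney and gives rise to the collecting ducts. The cells came from E15.5 kidneys carrying Rosa26YFP and Hoxb7Cre, in which a fluorescent reporter is switched on in cells of the Hoxb7-Cre lineage, and were sorted on that fluorescence from trypsinized tissue. There was 1 group of 2 samples. Replicate 1 was stained with Cy3 and its counterpart with Cy5, and a dye effect cannot be told apart from a sample effect. Both carried the same alleles, and no other genotype, age or cell type was analysed here. The labels do not say whether the samples came from separate litters or sorts, so differences between them may be technical.

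MicroRNAs (miRNAs) are short RNAs that guide Argonaute proteins to messenger RNAs and lower their output, mainly through pairing of the seed, bases 2 to 8. miRNAs of the miR-130 and miR-301 family share 1 seed and hence many predicted targets, and have been studied in vascular cells, fibrosis and tumour growth, with Pparg among the reported targets. In the ureteric bud lineage, loss of the miRNA-processing enzyme Dicer disturbs kidney development, which makes the miRNA content of these cells of interest. The design can show which family probes stood above a chosen background limit in these sorted cells.

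The target sequences of the 4 probes, taken from the scanner tables, are shown because the members differ by so few bases. Capitals mark the seed, and the probe for miR-721, a mouse miRNA with the same seed, is added.
miR-130a: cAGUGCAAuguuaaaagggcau
miR-130b: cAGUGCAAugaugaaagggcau
miR-301a: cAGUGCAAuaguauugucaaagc
miR-301b: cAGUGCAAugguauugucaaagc
miR-721: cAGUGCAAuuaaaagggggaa
Counted from base 1 at the 5′ end, miR-130a and miR-130b differed at 2 of 22 bases, U11A and A13G, with the base of miR-130a first. The pair miR-301a and miR-301b differed at 1 of 23, A10G, with the base of miR-301a first. Between the miR-130 and the miR-301 pair the first 9 bases, and 10 where miR-301b was compared, were shared and the 3′ parts diverged, leaving 9 to 11 differences over 22 bases. For each member, the other member of its pair was the 1 probe on the array within 3 edits. Whether a probe also binds the other miRNA of its pair was not tested, so the readings below are those of probes. The seed AGUGCAA was found at bases 2 to 8 of 5 of the 1040 targets (0.481%), namely the 4 members and miR-721. The GC content was 40.9% for miR-130a, 45.5% for miR-130b, 39.1% for miR-301a and 43.5% for miR-301b, each below the array median of 47.8%.

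In the RefSeq tables (GRCm38.p6), the targets of miR-130a, miR-130b and miR-301a were identical to the mature 3p arms, and the target of miR-301b was found within the Mir301b hairpin. The genes lie on 3 chromosomes. Mir130a is on chromosome 2 and overlaps no other listed gene. Mir301, the gene of miR-301a, is on chromosome 11 within the span of Ska2, which encodes a spindle and kinetochore protein. Mir130b and Mir301b are direct neighbours on the same strand of chromosome 16, within the span of 2610318N02Rik and with 0 genes between them. Their hairpins are shown as the precursors of a member whose probe gave signal and of a neighbour whose probe did not, with the stretch targeted by the probe in capitals.
Mir130b hairpin: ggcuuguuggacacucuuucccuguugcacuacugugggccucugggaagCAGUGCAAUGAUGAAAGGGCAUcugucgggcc
Mir301b hairpin: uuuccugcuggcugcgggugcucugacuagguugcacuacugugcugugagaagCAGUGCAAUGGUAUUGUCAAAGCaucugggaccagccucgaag

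Detection was judged on raw intensity, array by array. The limit was set 3 SD above the mean of the 560 blank spots, at 303.2 units in replicate 1 and 81.1 in replicate 2, and a call needed at least 50% of the 3 repeats of a probe above it. By this rule 5.96% of all miRNA probes were detected in both samples, 7.88% in replicate 1 and 6.15% in replicate 2. The sorted cells carried epithelial signal, with miR-200b, miR-200c and miR-429 detected in both samples out of 5 epithelial miRNAs. The others, miR-200a (238.7 and 51.9 units in replicates 1 and 2) and miR-141 (207.9 and 54.0), were detected in neither. Of 5 mesenchymal, 2 endothelial and 6 blood miRNAs, 0 were detected in both samples. The mesenchymal miR-214 was above the limit in replicate 2 alone, at 88.0 units, and read 281.0 in replicate 1. Under several of the other limits given below, miR-214 was detected in both samples.

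The probe for miR-130b was the member probe with signal. Both samples together gave 0 of 4 members, beside 5.96% of all probes. In replicate 1 it had 1 of 4, beside 7.88% of all probes, and in replicate 2 it had 0 of 4, beside 6.15%. With 4 members these counts are near the background and show no difference of the family from the array. The detail lies in the single probes.

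The 3 repeat spots of miR-130b read 366.9, 443.5 and 405.0 units in replicate 1. All 3 lay above the limit of 303.2, and the median was 1.34 times the limit. In replicate 2 they read 79.9, 87.0 and 75.9 units, so 1 of 3 passed the limit of 81.1 and the median was 0.985 times the limit. No probe had a median between that of miR-130b and the limit in replicate 2, where 64 probes lay above it. By median raw intensity miR-130b was the 60th brightest of 1040 probes in replicate 1 and the 65th in replicate 2. Only 1 of 560 blank spots in replicate 1 and 7 of 560 (1.25%) in replicate 2 were at least as bright as its median. The coefficient of variation of raw intensity over repeat spots, background included, was 9.45% in replicate 1 and 6.94% in replicate 2. Relative to the mean signal over the median blank it was 18.9% and 24.9%.

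**Figure D1:**
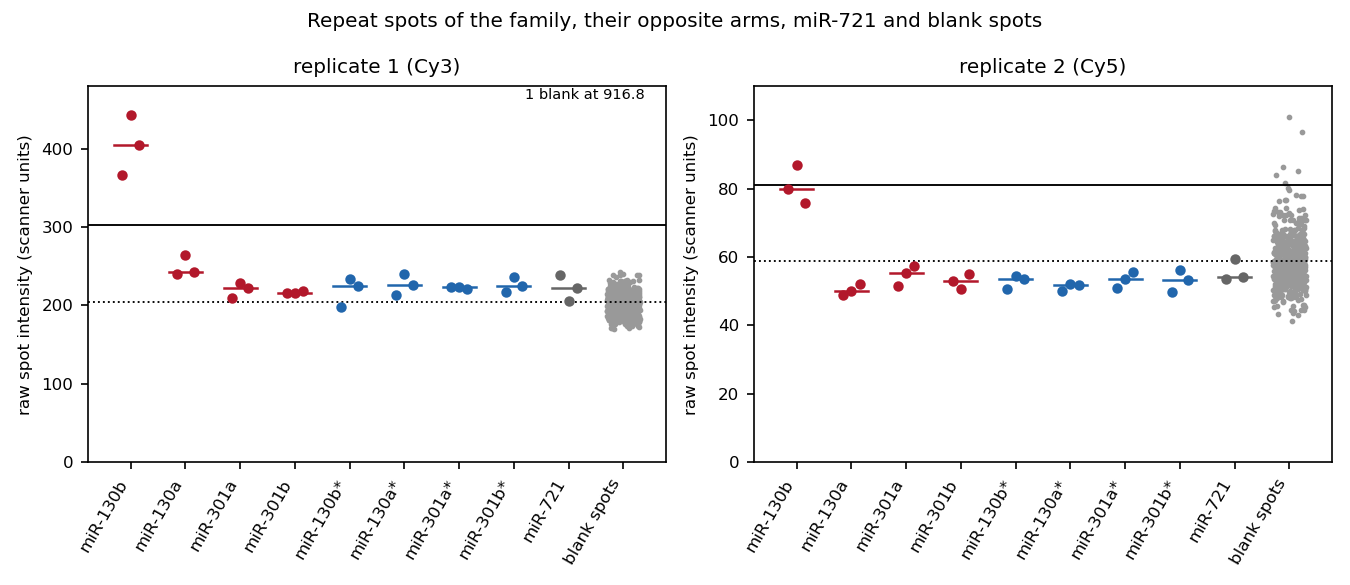
Raw intensity (scanner units) of the 3 repeat spots of each family member (red), opposite arm (blue) and miR-721 (grey), with the 560 blank spots at the right, in replicate 1 and replicate 2. Short bars are medians, the dotted line is the blank mean and the solid line the detection limit. miR-130b stands apart in both panels, at medians of 405.0 and 79.9 units, and the other members lie among the opposite arms, apart from miR-130a in replicate 1.

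miR-130a, which differs from miR-130b at 2 bases, read 240.5, 264.4 and 242.1 units in replicate 1. In replicate 2 its spots read 48.9, 50.2 and 52.2 units. Neither sample had a spot above the limit. The median of 242.1 units in replicate 1 was 0.798 times the limit and exceeded all but 2 of 560 blank spots. In replicate 2 its median was below the blank mean of 58.9, and 91.1% of blank spots were as bright. Its rank among the 1040 probes was 137 in replicate 1 and 795 in replicate 2, so a raised reading was present in 1 sample only.

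The spots of miR-301a read 209.5, 228.6 and 222.8 units in replicate 1, and in replicate 2 they read 51.5, 55.4 and 57.3. Those of miR-301b read 216.2, 216.4 and 219.0 units in replicate 1, against 52.9, 50.8 and 55.1 in replicate 2. Their medians were 0.735 and 0.714 times the limit in replicate 1 and 0.683 and 0.652 times in replicate 2. The median probe of the array stood at 0.735 and 0.655 times the limits of replicates 1 and 2, so both miR-301 probes read like the mass of dim probes. Neither could be told from background here, and low amounts of both miRNAs remain possible. The neighbours Mir130b and Mir301b thus gave different readings, 405.0 against 216.4 units in replicate 1 and 79.9 against 52.9 in replicate 2. Since probes differ in affinity, these readings do not rank the 2 miRNAs by amount.

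**Figure D2:**
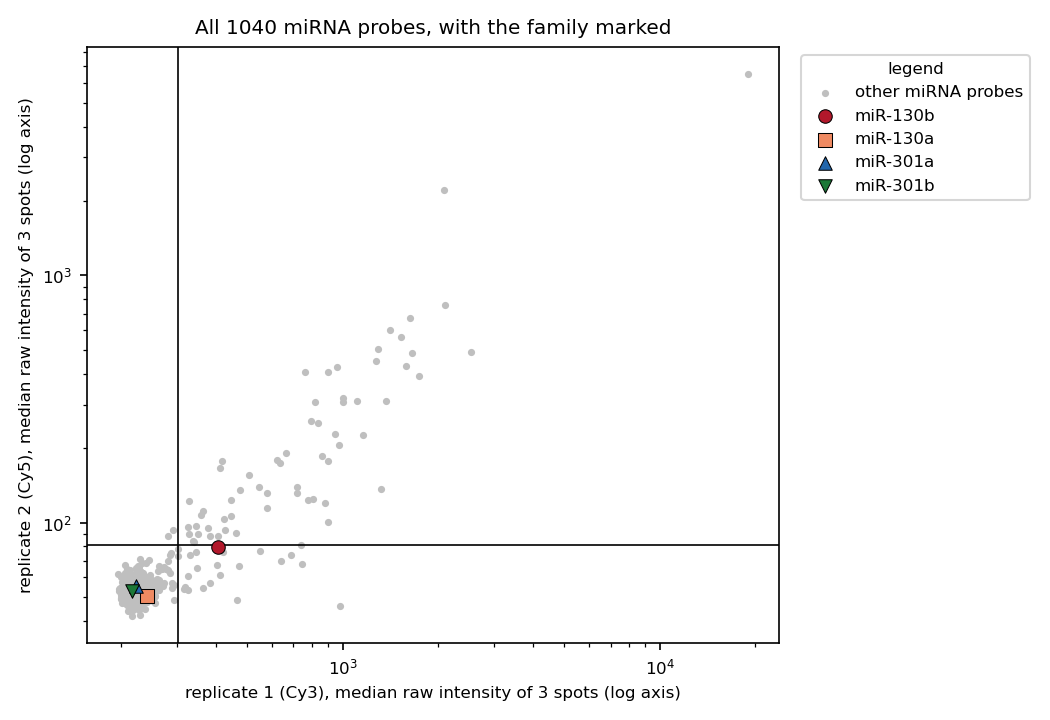
Median raw intensity of the 3 repeat spots of all 1040 miRNA probes in replicate 1 (x, log axis) and replicate 2 (y, log axis), with the detection limits of 303.2 and 81.1 units as lines. miR-130b lies right of the replicate 1 limit and just under that of replicate 2, while miR-130a, miR-301a and miR-301b lie within the cloud of undetected probes.

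Blank spots are not a perfect background for miRNA probes. The median spot of all miRNA probes read 223.9 units in replicate 1, above the median blank of 203.1. In replicate 2 the order was the opposite, with 53.1 units for miRNA spots against 58.4 for blanks. A single blank spot at 916.8 units also widened the replicate 1 limit, which was 243.5 units without it. miR-130a, at 242.1 units, fell short of that limit too. Each spot was therefore also set against the median of nearby spots of undetected miRNA probes, within 3 rows and 2 columns. This check was chosen after seeing the data. miR-130b lay 153.2, 207.7 and 176.0 units above its surroundings in replicate 1, where the limit of 3 scaled median absolute deviations was 27.6 units. In replicate 2 it lay 31.1, 36.2 and 24.2 units above them, with a limit of 13.6. All 6 spots passed, so that on this scale miR-130b was detected in both samples, as were 7.69% of all probes. The mesenchymal miR-214 was likewise detected in both on this scale, at medians of 77.9 and 33.1 units in replicates 1 and 2. The spots of miR-130a lay 26.9, 28.6 and 16.8 units above their surroundings in replicate 1, so 1 of 3 passed. In replicate 2 the differences were 0.63, -0.63 and 1.44 units. The medians of miR-301a were -2.0 and 1.22 units in replicates 1 and 2, and those of miR-301b -2.76 and 0.417 units, at the level of the surrounding spots.

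**Figure D3:**
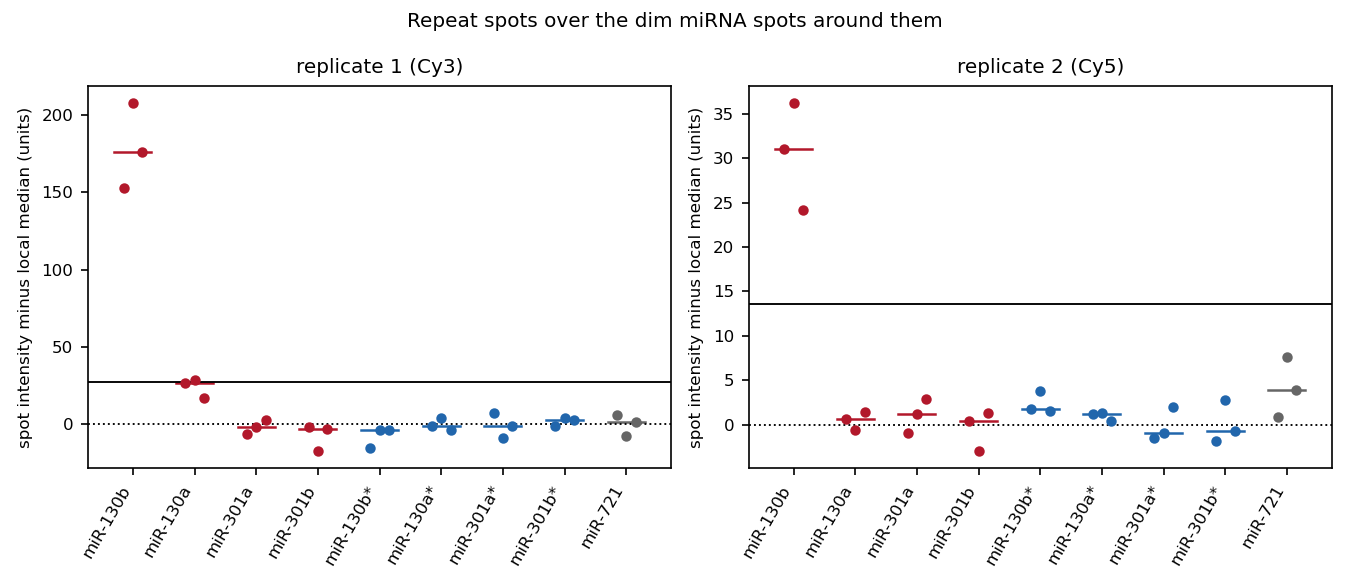
Intensity of each repeat spot minus the median of nearby spots of undetected miRNA probes, for the family (red), its opposite arms (blue) and miR-721 (grey). Short bars are medians, the dotted line is 0 and the solid line the limit, 27.6 units in replicate 1 and 13.6 in replicate 2. All spots of miR-130b exceed the limit in both samples, and 1 spot of miR-130a reaches it in replicate 1.

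How far the call for miR-130b depends on the limit was read from 6 other limits. Its signal over the limit ranged from 0.757 to 1.79 in replicate 1 and passed 5 of the 6, failing at the blank mean plus 10 SD. In replicate 2 it ranged from 0.601 to 1.18 and passed 3 of the 6. These 3 were the 95th percentile of blank spots, the blank median plus 3 scaled median absolute deviations, and the same limit from miRNA spots. Under them miR-130b was detected in both samples, as were 7.21%, 6.25% and 7.4% of all probes. The mesenchymal miR-214 was also detected in both samples under these 3, and under the limit without the brightest blank spot. Under the limit without the brightest blank spot, at 6 SD and at 10 SD, 0 of 4 members were detected in both samples, beside 6.15%, 4.33% and 3.17% of all probes. The same count of 0 was found when every repeat spot had to pass, beside 5.38%. In replicate 1 alone, where miR-130b passed all but the last of these, all probes passed the 95th percentile in 36.1% of cases, the limit without the brightest blank spot in 12.8%, the blank median limit in 12.7%, the miRNA spot limit in 10%, the 6 SD limit in 5.87% and the 10 SD limit in 4.42%. In replicate 2 the shares in the same order were 7.21%, 6.15%, 6.25%, 7.79%, 4.62% and 3.56%. miR-130a passed 1 of the 6 limits in replicate 1, the 95th percentile of blank spots, which 36.1% of all probes passed there. It passed 0 in replicate 2, and both miR-301 probes passed 0 in either sample.

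**Figure D4:**
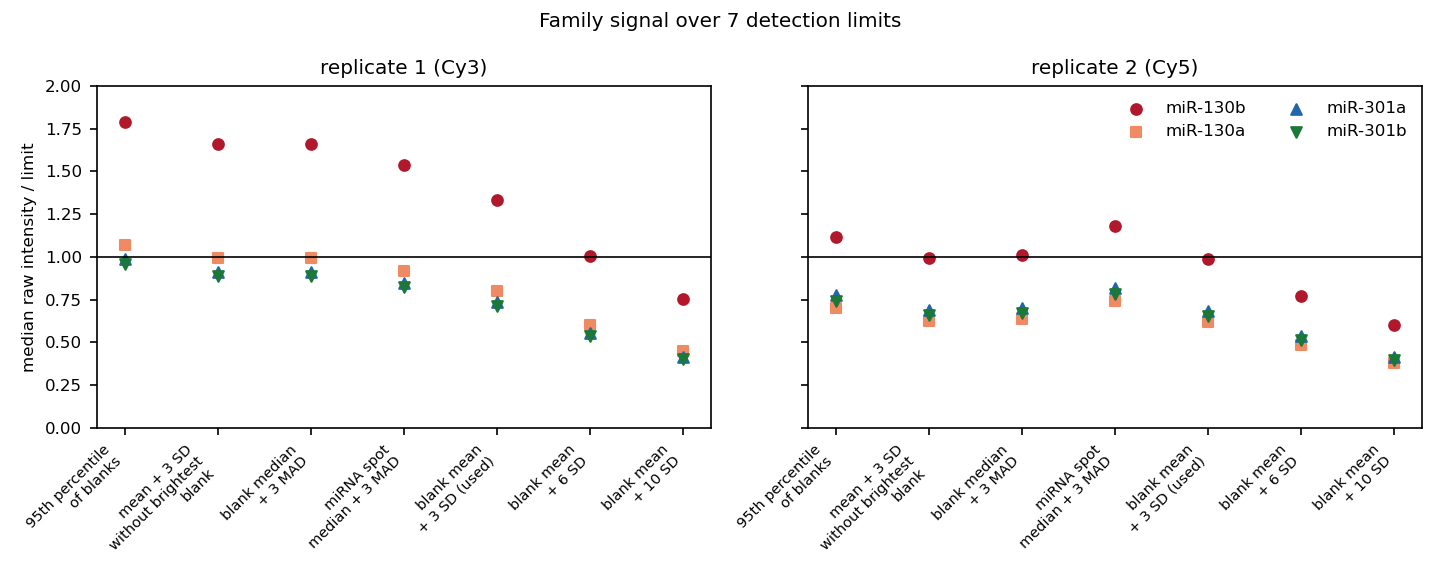
Median raw intensity of each family member divided by 7 detection limits, in replicate 1 and replicate 2. Points above the line at 1 exceed the limit. miR-130b crosses the line between the limits of 6 and 10 blank SD in replicate 1 and sits close to it under 3 limits in replicate 2.

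After background correction and quantile normalization, the log2 signal of miR-130b was 7.36 in replicate 1 and 7.22 in replicate 2 (mean 7.29 ± 0.10, SD, n = 2). That of miR-130a was 6.50 and 6.22 (6.36 ± 0.20), that of miR-301a 6.29 and 6.38 (6.34 ± 0.06) and that of miR-301b 6.22 and 6.30 (6.26 ± 0.06). Relative to the blank level of its array on the same scale, miR-130b stood 1.30 log2 units higher in replicate 1 and 0.75 in replicate 2. The mean of 1.03 ± 0.39 (SD, n = 2) was about the 2-fold bound of limma's treat test. With limma's moderated SE of 0.31, which draws on the spread of all probes, miR-130b did not pass it (adjusted p = 1, unadjusted p = 0.466). The SD and SE over blank also hold the difference in blank level between the arrays, which enters every probe alike. miR-200c, with a normalized log2 signal of 10.27 in both samples, had an SD of 0.29 over blank. The other members averaged 0.10 (miR-130a), 0.07 (miR-301a) and 0.00 (miR-301b) log2 units over blank, and 0 of 4 members passed limma's treat test, adjusted or unadjusted. Over all probes 3.46% passed by adjusted p and 4.33% by unadjusted p. The median over the members was 0.09 log2 units, against 0.03 over all 1040 probes. With plain subtraction of the blank median in place of the background model, miR-130b was past the bound of limma's treat test (adjusted p = 0.0363), as were 6.25% of all probes. That subtraction puts the blank level near 0 and holds lower values at a floor of 1 unit, where 6.15% of miRNA spots lay in replicate 1 and 85.1% in replicate 2. The fold over blank is then set by the floor and is not read as a size.

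How far the samples differed in miR-130b depended on the background and the normalization. Its raw median was 5.07 times higher in replicate 1 than in replicate 2, and 5.66 times higher after subtraction of the local background. The 80 miRNAs detected in both samples by the local background, miR-130b among them, had a median of 3.60 times, and 17 exceeded 5.66. Subtraction of the median blank gave 9.38 times, with only 21.5 units left in replicate 2 after subtraction of a blank level that lay above most miRNA spots there. The 62 miRNAs detected in both samples by the blank limit had a median of 3.74 times on that scale, and 4 exceeded 9.38. These 62 had to pass the replicate 2 limit, which miR-130b did not, so they are not a like set. After quantile normalization the difference, replicate 1 minus replicate 2, was 0.14 log2 units, within the range of the 62 miRNAs detected in both samples by the blank limit (-1.16 to 1.42, median -0.20). Cyclic loess gave 0.27. After median scaling it was 0.97, where the median of all probes was -0.0037, and the 62 miRNAs spanned -0.87 to 2.34 with a median of 0.74. With quantile normalization the difference was 0.28 for miR-130a, -0.08 for miR-301a and -0.08 for miR-301b, each of them undetected in both samples. With 1 sample per dye none of these differences has a replicate check.

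The table of processed values that the authors deposited listed miR-130b at 210 and 163 units in replicates 1 and 2, with ranks of 67 and 71 among 1040 probes. In the authors' deposited table miR-130a stood at 63 and 14 units, miR-301a at 7 and 11, and miR-301b at 5 and 6, beside column medians of 10 and 9. There miR-130a had rank 106 in replicate 1 and rank 301 in replicate 2. These values describe the same 2 samples, so they are no separate evidence for its raised reading in replicate 1. The deposited values are linear and not centred on 0, and over the 62 detected miRNAs they followed the blank-subtracted intensities with Spearman's rho of 0.987 and 0.995 across miRNAs, which are not independent. The normalization behind them is not given in the sources used here.

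The opposite arms of all 4 hairpins were on the array under asterisk names. They are the 5p arms, and the arms of miR-301a and miR-301b share their own seed, CUCUGAC.
miR-130a*: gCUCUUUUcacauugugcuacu
miR-130b*: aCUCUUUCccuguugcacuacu
miR-301a*: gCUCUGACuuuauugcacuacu
miR-301b*: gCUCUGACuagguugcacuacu
None of the 4 was detected in either sample by the blank limit, beside 84 of all 1040 probes. Their medians spanned 223.0 to 226.2 units in replicate 1 and 51.8 to 53.7 in replicate 2. The spots of miR-130b* read 198.4, 233.8 and 224.9 units in replicate 1, against 50.6, 54.5 and 53.5 in replicate 2. For the Mir130b hairpin, signal was thus read at the 3p probe, at 405.0 and 79.9 units, against medians of 224.9 and 53.5 at the 5p probe. A share of miR-130a in the 3p reading was not tested.

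Probes with a related seed were read next, since a partly shared seed gives overlapping targets. miR-721 was not detected, at 222.9 and 54.2 units in replicates 1 and 2. Another 7 probes held 6 of the 7 seed bases within their first 9 bases, 0.673% of the array. The miR-148/152 family carries the first 6 seed bases 1 position further in and is known for targeting Dnmt1. The miR-19 pair carries the last 6 and belongs to the cluster of miR-17 to miR-92a. An example of each is shown with the shared bases in capitals.
miR-148a: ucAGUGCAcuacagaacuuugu
miR-19a: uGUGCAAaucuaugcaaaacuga
Of these 7, namely miR-148a, miR-148b, miR-152, miR-19a, miR-19b, miR-291b-3p and miR-350*, 0 were detected in either sample. Over all 1040 probes 84 were, so a count of 0 among 7 is near the background. Their medians spanned 209.9 to 229.3 units in replicate 1 and 45.2 to 54.7 in replicate 2. The seed AAAGUGC of miR-17 holds 5 bases in common with the miR-130 seed. Of the 6 probes with the miR-17 seed, 4 were detected in both samples, beside 5.96% of all probes. These were miR-106b, miR-93, miR-20a and miR-17. miR-17, of the same cluster as the miR-19 pair, read 1005.3 and 307.6 units in replicates 1 and 2. miR-19a read 217.1 and 45.2 units there, and miR-19b 227.4 and 50.3. Whether these readings follow the amounts of the miRNAs was not tested.

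The 3 probes most like miR-130b, by the Euclidean distance of the normalized log2 signals in the 2 samples, were miR-1196 (distance 0.10), miR-106b (0.19) and miR-1983 (0.21). miR-1196 read 419.5 and 76.0 units in replicates 1 and 2 and was likewise above the limit in replicate 1 alone. miR-106b, with a median of 405.0 units, equalled miR-130b in replicate 1 and read 88.5 units in replicate 2, above the limit there. miR-1983 read 381.0 and 88.4 units and was also detected in both samples. Brightness alike between probes is a description of these 2 arrays.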

How the data were processed

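Small RNA below 300 nt from 4 µg of total RNA was poly(A)-tailed, tagged and stained with Cy3 or Cy5 for miRNA arrays run by LC Sciences, per the labels' protocols. The authors deposited raw spot intensity with its SD, neither background-subtracted nor normalized, per the file headers and values, and a table of processed intensity in whole numbers, whose processing is not given in the sources used here. Each array held 3968 spots: 3120 for 1040 miRNA probes in 3 repeats, 560 blank and 288 other controls, which were left out of the results. Raw intensities served for detection (blank mean plus 3 SD, at least 50% of repeat spots). For log2 signal, normexp (offset 50, all spots), log2, quantile normalization over miRNA spots and the median of repeat spots were used, then limma's treat test (2-fold bound, trend, Benjamini-Hochberg over 1040 probes, threshold 0.05) on signal minus blank level (R 4.3.3, limma 3.58.1). The prior degrees of freedom were estimated as infinite, so probes of like signal shared 1 variance, and p-values rest on the spread between 2 samples. That spread includes the difference in blank level between the arrays, which all probes share. Detection and the treat test were run on simulated data with planted signals, alike in both samples. A pass was required only for the strongest planted signals and, for the treat test, for probes without signal. Signals as weak as that of miR-130b were not covered by this requirement. Probe names are those of the array design. Named probes were the members, opposite arms, probes with the same seed or 6 of its bases, those with the miR-17 seed, cell type markers and the 3 nearest probes by signal. Members and lists were chosen with earlier results of these data known. Alternatives changed the limit, repeat-spot rule, background correction, normalization, fold bound, filter on dim probes and sample. Precision is limited by the number of arrays and by the height of signal over background.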

Additional observations from a re-analysis of the deposited data

How the results depend on the processing

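No paired analysis was possible because there was a single group. The number of members detected in both samples, 0, became 1 (miR-130b) with the 95th percentile of blank spots, with either limit from median absolute deviations and with the local background, which was chosen after seeing the data. It stayed 0 at 6 and 10 blank SD, without the brightest blank spot and with every repeat spot required. With a sample left out it ranged from 0 (without replicate 1) to 1 (without replicate 2). The count over all miRNAs, 62, was 33 at 10 blank SD and 64 to 82 with a sample left out. Probes with the same seed or 6 of its bases stayed at 0 in both samples under all of these settings, leaving out a sample included. Over all miRNAs, 36 passed the treat test. This became 65 with blank subtraction, 13 when the bound was 4-fold and 2 without normalization. Median scaling shifts a whole array, blank level included, so signal over blank is the same as without normalization. Its count of 2 is therefore the same result and no separate check. Why the count was lower without normalization was not tested. The count of members past the treat test, 0, became 1 (miR-130b) with blank subtraction, where the floor of 1 unit sets the fold over blank. The replicate difference of miR-130b, 0.14 log2 units, ranged from 0.11 to 1.66, the highest without normalization, where the median of all probes was 0.69, followed by 0.97 with median scaling, where it was -0.0037. A reading below the limit does not exclude low amounts of a miRNA.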

Other observations

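Over the 62 miRNAs detected in both samples, the processed values in the authors' deposited table were a median of 1.66 times the blank-subtracted intensity in replicate 1 (quartiles 1.55 and 1.90). For miR-130b the same factor was 1.04. In replicate 2 the median factor was 8.0 (quartiles 6.72 and 9.02), and that of miR-130b was 7.57. The deposited values of miR-130b were therefore 1.29 times higher in replicate 1 than in replicate 2, against 9.38 times for the blank-subtracted intensities and 5.66 times after subtraction of the local background. Among the 62 miRNAs the deposited values had a median ratio of 0.849, replicate 1 over replicate 2, and 13 exceeded the ratio of miR-130b. For the blank-subtracted intensities their median ratio was 3.74, and 4 exceeded that of miR-130b.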
